A study of Arabidopsis thaliana with 25 samples.

Results

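AT3G15450, AT3G15630 and AT1G80380 are 3 of the 16552 Arabidopsis thaliana genes that have a row of their own in the array table, and each has 1 row. They were chosen by their measured values. In both transgenic lines their rows stood higher after 2 h with dexamethasone (DEX) than after 1 h with the solvent DMSO, and they also had higher means after 2 h with DMSO and cycloheximide (CHX). Those 2 contrasts are therefore given for the 3 genes as a description, without a test. The working name for the genes was sugar starvation, and it was set against other genes of that response, with the result given further on.

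Roots of 4-day-old seedlings of ecotype Col-0, called root tips in another label field, were profiled on 25 one-colour whole-transcript arrays. All plants carried a PEAR transcription factor fused to a glucocorticoid receptor domain (GR), either pRPS5A::PEAR1-GR or pRPS5A::PEAR2-GR, driven by a promoter known for its activity in dividing cells. Both factors, encoded by AT2G37590 (PEAR1) and AT5G02460 (PEAR2), belong to the DOF family and act in the phloem. All arrays analysed came from plants with such a fusion. Within each line the groups were DMSO for 1 h, DEX for 2 h, DMSO+CHX for 2 h and DEX+CHX for 2 h, with 3 arrays each except the PEAR1 line with DEX+CHX, which had 4.

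DEX is a synthetic glucocorticoid that lets a GR fusion enter the nucleus, so the study could ask which transcripts respond to the active factor. CHX blocks translation, and DEX+CHX asks which transcripts respond without newly made protein. Solvent treatment lasted 1 h and DEX treatment 2 h, so DEX and the longer time cannot be told apart when these are compared. DMSO+CHX alone was run in arraying batch A461, and all other groups were run in batch A451. DEX and batch can therefore not be told apart between DEX+CHX and DMSO+CHX. DEX+CHX and DEX share both time and batch.

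Plant cells sense a shortage of sugar through the kinase SnRK1, which shifts transcription from growth towards the breakdown of stored carbon, protein and amino acids. Much of that shift passes through bZIP transcription factors of the C and S1 groups. Transcripts raised by sugar starvation or by darkness are commonly used as readouts of SnRK1 activity. Photorespiration, by contrast, is a pathway of green cells that recovers carbon lost when Rubisco takes up oxygen, and its last step turns glycerate into an intermediate of the Calvin cycle.

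The annotation tables used here list all 3 loci as protein-coding and give none of them a symbol, so the following roles are general knowledge. AT1G80380 encodes glycerate kinase, the enzyme of that last step. AT3G15450 encodes a protein of the aluminium-induced type with YGL and LRDR motifs. AT3G15630 encodes a small protein without a known function. Transcripts of AT3G15450 and AT3G15630 are among those known to rise in carbon starvation.

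Values are log2 intensities, as the authors deposited them, and a difference of 1 is a doubling. Replicate arrays of a group correlated at 0.988 to 0.994 over the named rows. The root markers PYK10, a beta-glucosidase of root cells, and EXPA7, an expansin of root hairs, stood at 12.03 to 12.64 and 9.22 to 10.05 in the 25 arrays. Of the 24 green-tissue markers listed, LHCB4.1, a light-harvesting protein, and RCA, Rubisco activase, have rows, at 3.68 to 5.25 and 5.58 to 7.16. Nothing in the labels ties replicates to separate cultures. The p-values thus reflect only how far these samples scatter, and that scatter may be technical.

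The lowest values of all 3 genes were in the DMSO arrays. AT3G15450 stood at 4.84, 4.64 and 3.12 in DMSO in the PEAR1 line and at 5.52, 4.45 and 4.66 in the PEAR2 line. With DEX it stood at 5.89, 6.48 and 6.27 in the PEAR1 line and at 6.85, 6.76 and 6.42 in the PEAR2 line. Every DEX array of either line was above every DMSO array of that line, and the DMSO arrays were the most scattered.

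With CHX, the group means of AT3G15450 lay between those of DMSO and DEX. DMSO+CHX gave 5.85, 5.64 and 5.99 in the PEAR1 line, against 5.41, 5.68 and 5.24 in the PEAR2 line. DEX+CHX gave 5.59, 5.82, 5.78 and 5.58 in the PEAR1 line, against 6.23, 5.85 and 5.69 in the PEAR2 line. In the PEAR2 line 2 of the 3 DMSO+CHX arrays lay below the highest DMSO array, so these groups overlapped.

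AT3G15630, the small protein gene, was at 4.63, 4.69 and 3.94 in DMSO in the PEAR1 line and at 5.36, 5.33 and 5.47 in the PEAR2 line. DEX gave 6.65, 6.74 and 6.29 in the PEAR1 line, against 6.52, 6.72 and 6.97 in the PEAR2 line. The DMSO arrays of the 2 lines did not overlap, whereas the DEX arrays did. With DMSO+CHX it was at 6.39, 6.29 and 6.08 in the PEAR1 line and at 5.58, 6.10 and 5.57 in the PEAR2 line. With DEX+CHX it was at 5.71, 6.08, 5.78 and 6.09 in the PEAR1 line and at 6.59, 5.91 and 5.98 in the PEAR2 line. Of the 3 PEAR2 arrays with DMSO+CHX, 2 were barely above the DMSO arrays of that line, and the first PEAR2 array with DEX+CHX was above the others of its group.

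AT1G80380, the glycerate kinase gene, was at 5.53, 6.71 and 5.91 in DMSO in the PEAR1 line and at 6.60, 5.90 and 6.65 in the PEAR2 line. With DEX the values were 8.25, 8.30 and 8.08 in the PEAR1 line, against 8.22, 8.25 and 8.30 in the PEAR2 line. The DEX arrays of both lines lay close together, and all were far above the DMSO arrays. DMSO+CHX gave 8.05, 7.87 and 7.94 in the PEAR1 line, against 7.68, 7.95 and 7.90 in the PEAR2 line. DEX+CHX gave 7.74, 7.71, 7.51 and 7.31 in the PEAR1 line, against 7.85, 7.80 and 7.75 in the PEAR2 line. In each line the DEX arrays were above all arrays of the other groups.

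**Figure D1:**
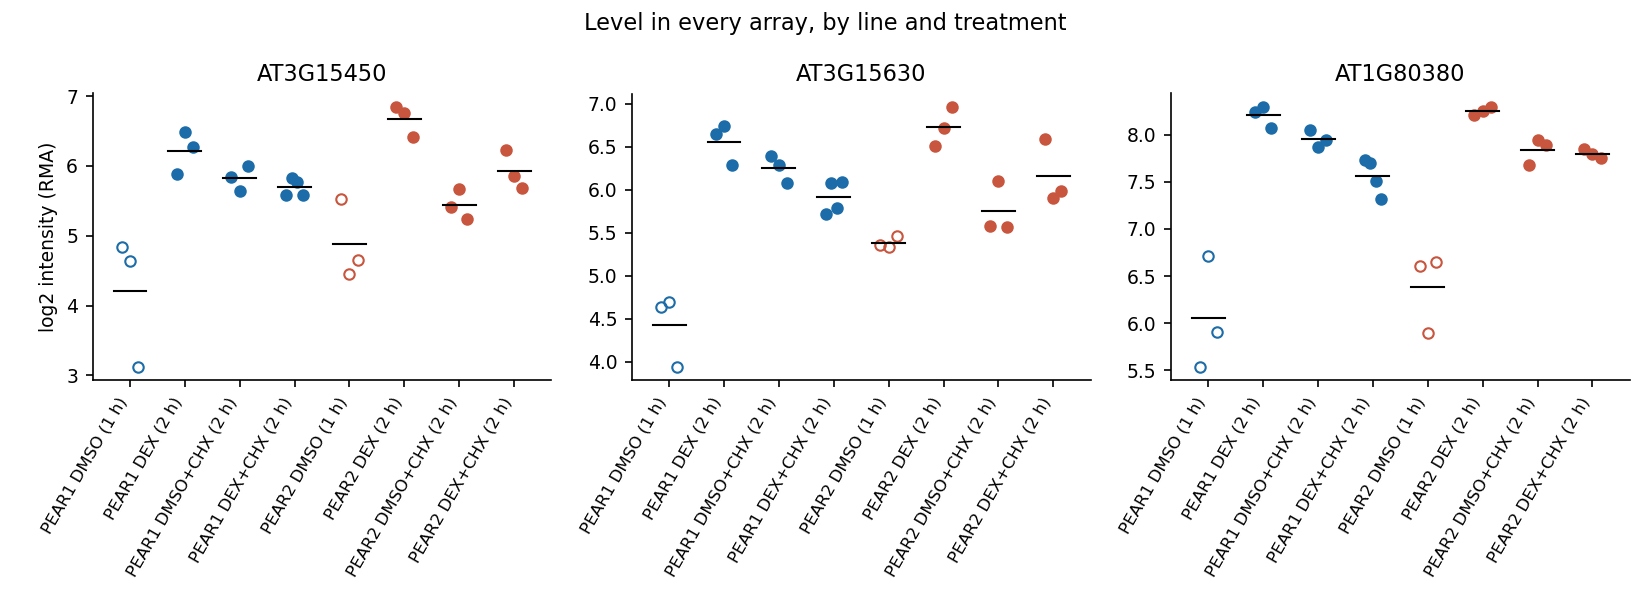
Level of each gene (vertical axis, log2 intensity, a different range in each panel) in all 25 arrays, by line and treatment; points are arrays, open for 1 h and filled for 2 h, blue for the PEAR1 line and red for the PEAR2 line, and bars are group means. For AT1G80380 the 6 DMSO arrays lie at 5.53 to 6.71 and the 2 h arrays at 7.31 to 8.30.

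Ordered by group mean, each gene had the PEAR1 DMSO group lowest, the PEAR2 DMSO group next and both DEX groups at the top. For AT3G15450 the means ran from 4.20 ± 0.94 (SD, n = 3) in PEAR1 DMSO to 6.68 ± 0.23 (SD, n = 3) in PEAR2 DEX, and the arrays of each pair of neighbours in the order overlapped. For AT3G15630 the means ran from 4.42 ± 0.42 (SD, n = 3) to 6.73 ± 0.23 (SD, n = 3) in the same 2 groups. Its lowest 3 groups, PEAR1 DMSO, PEAR2 DMSO and PEAR2 DMSO+CHX, did not overlap with their neighbours among themselves, and all steps above them did overlap. For AT1G80380 the means ran from 6.05 ± 0.60 (SD, n = 3) to 8.25 ± 0.04 (SD, n = 3). Its widest step was 1.19, from PEAR2 DMSO to PEAR1 DEX+CHX, and the arrays at that step did not overlap.

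The levels can also be set out by time, as a description, since the choice itself placed the DEX arrays and the DMSO+CHX means above DMSO. In the PEAR1 line all 10 arrays of 2 h stood above all 3 arrays of 1 h, for each of the 3 genes. In the PEAR2 line this held for 9 of 9 arrays for AT3G15630 and AT1G80380, and for 7 of 9 for AT3G15450. The 2 exceptions were DMSO+CHX arrays. How many of all rows show such an order was not counted. All 1 h arrays were DMSO and no DMSO array was taken at 2 h, so the part of time in these levels was not tested.

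DEX (2 h) against DMSO (1 h) asked which transcripts change once the fusion is activated, and it was one of the contrasts that chose the genes. AT3G15450 was higher by 2.01 ± 0.32 (SE of the limma model) in the PEAR1 line, or 4.03-fold, and by 1.80 ± 0.32 in the PEAR2 line. AT3G15630 was higher by 2.14 ± 0.21 and 1.35 ± 0.21 in the PEAR1 and PEAR2 lines. AT1G80380 was higher by 2.16 ± 0.21 and 1.87 ± 0.21. Without the third PEAR1 DMSO array, at 3.12, the PEAR1 difference of AT3G15450 was 1.47.

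Across all 17504 rows that name a gene, 1.27% were called higher with DEX in the PEAR1 line, against 2.15% in the PEAR2 line, where a call is an adjusted p under 0.05 in limma's moderated test. Ordered by the size of the rise over the 16552 genes, AT1G80380, AT3G15630 and AT3G15450 held places 6, 7 and 8 in the PEAR1 line. Their places in the PEAR2 line were 16, 41 and 18. In both lines 107 rows were called higher with DEX, and 68 of these also had a higher mean with DMSO+CHX in both lines. The 3 genes belong to those 68 by the way they were chosen.

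DMSO+CHX (2 h) against DMSO (1 h) was the other contrast used in the choice. AT3G15450 was higher by 1.63 ± 0.32 in the PEAR1 line and by 0.56 ± 0.32 in the PEAR2 line. For AT3G15630 these differences were 1.83 ± 0.21 and 0.36 ± 0.21, and for AT1G80380 they were 1.90 ± 0.21 and 1.46 ± 0.21. Over all rows, 20.3% and 21.5% were called higher in these lines. Without the third PEAR1 DMSO array the PEAR1 difference of AT3G15450 was 1.09. Its PEAR2 difference reached 0.89 without the first PEAR2 DMSO array, and that of AT3G15630 was 0.18 without the second PEAR2 DMSO+CHX array. Over all rows, in either direction, 45.6% and 46.7% were called in the 2 lines, of which 55.4% and 53.9% were lower. After quantile normalization once more the lower share of calls was 42.6% and 43.0%.

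Set against the same DMSO arrays, DEX+CHX stood higher by 1.49 ± 0.30 for AT3G15450, 1.49 ± 0.19 for AT3G15630 and 1.52 ± 0.20 for AT1G80380 in the PEAR1 line. In the PEAR2 line the differences were 1.05 ± 0.32, 0.77 ± 0.21 and 1.42 ± 0.21. The 3 contrasts with DMSO share its arrays, so their likeness is no separate result. Calls over all rows were 46.2% in the PEAR1 line, against 44.4% in the PEAR2 line, and 57.0% and 56.8% of them were lower, or 41.6% and 42.6% after quantile normalization once more. No array of DEX+CHX overlapped with the DMSO arrays of its line for any of the 3 genes. The share of all rows without such overlap was not counted. Without the third PEAR1 DMSO array the PEAR1 difference of AT3G15450 was 0.95.

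**Figure D2:**
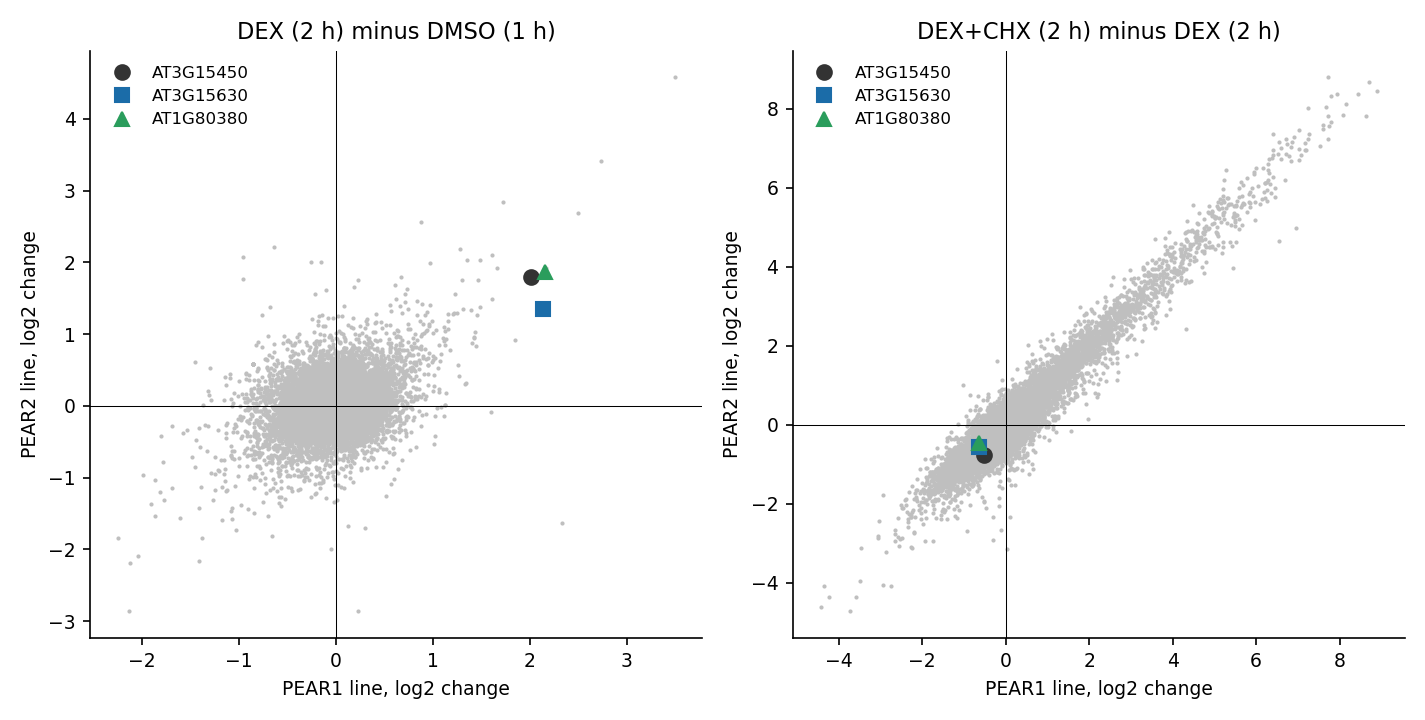
Log2 change in the PEAR1 line (horizontal axis) and the PEAR2 line (vertical axis) for DEX minus DMSO on the left and DEX+CHX minus DEX on the right; grey points are all rows that name a gene and the 3 large symbols are AT3G15450, AT3G15630 and AT1G80380. On the left the 3 genes lie at 2.01 to 2.16 in the PEAR1 line, outside the bulk of points, and on the right they lie inside it.

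DEX+CHX against DMSO+CHX asked whether DEX raised the transcripts while translation was blocked, with both groups at 2 h. None of the 3 genes passed the threshold in either line. The DMSO+CHX arrays served in choosing genes that were high in them, a choice that favours low values of this difference, so the comparison is not independent of the choice. In the PEAR1 line all 3 differences were below 0. AT3G15450 differed by -0.14 ± 0.30 (limma adjusted p = 0.886, 95% interval -0.75 to 0.48). AT3G15630 differed by -0.33 ± 0.19 (limma adjusted p = 0.434, interval -0.74 to 0.07). AT1G80380 differed by -0.39 ± 0.20 (limma adjusted p = 0.354, interval -0.80 to 0.03), and its arrays did not overlap. How many of all rows show no overlap between these groups was not counted.

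AT3G15450 differed in the PEAR2 line by 0.48 ± 0.32 (limma adjusted p = 0.44, interval -0.18 to 1.14), with every DEX+CHX array just above every DMSO+CHX array. AT3G15630 differed by 0.41 ± 0.21 (limma adjusted p = 0.274, interval -0.02 to 0.84). For AT1G80380 the difference was -0.04 ± 0.21 (limma adjusted p = 0.951, interval -0.48 to 0.40). Of all rows, 3.59% were called in the PEAR1 line, against 7.44% in the PEAR2 line, in either direction. The design confounds arraying batch with DEX here, and the share of all rows without overlap was not counted in this line either.

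DEX+CHX against DEX, matched in time and batch, asked what CHX changed in DEX-treated roots. The DEX arrays served in choosing genes that were high in them, a choice that favours values below 0 here. The fitted difference was below 0 for all 3 genes in both lines, and 3 of the 6 differences passed the threshold. AT3G15630 fell in the PEAR1 line by 0.64 ± 0.19 on the log2 scale, or 1.56-fold (limma adjusted p = 0.00838), and AT1G80380 fell there by 0.64 ± 0.20 (limma adjusted p = 0.0105). In neither case did the arrays overlap. AT3G15450 differed by -0.52 ± 0.30 in the PEAR1 line (limma adjusted p = 0.164, interval -1.14 to 0.09), and its arrays did not overlap either.

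AT3G15630 fell in the PEAR2 line by 0.57 ± 0.21 (limma adjusted p = 0.027), although its first DEX+CHX array, at 6.59, lay inside the range of the DEX arrays. That call was lost without any 1 of 4 arrays, DEX+CHX 2 and 3 and DEX 2 and 3, with values from -0.58 to -0.45 and adjusted p from 0.0535 to 0.129. It was also lost when only the arrays compared were fitted (limma adjusted p = 0.0595). AT3G15450 differed by -0.76 ± 0.32 (limma adjusted p = 0.057, interval -1.41 to -0.10) and AT1G80380 by -0.45 ± 0.21 (limma adjusted p = 0.0901, interval -0.89 to -0.01). The arrays did not overlap for either of these genes. Both genes passed with only the arrays compared, at adjusted p of 0.0115 and 0.0164, as AT3G15450 did in the PEAR1 line at 0.0191.

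These counts sit on a high background. In the same comparisons 26.0% of all rows in the PEAR1 line, against 26.3% in the PEAR2 line were called lower, and the median row changed by -0.09 and -0.12. Quantile normalization once more moved those medians to 0.15 and 0.12 and the lower share of all calls from 56.4% to 40.3% in the PEAR1 line and from 58.2% to 43.9% in the PEAR2 line. Under it the 3 calls held, at adjusted p of 0.0164, 0.0196 and 0.0447. As the genes were chosen for high DEX values, the comparison is not independent of the choice. Overlap of arrays was not counted over all rows.

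**Figure D3:**
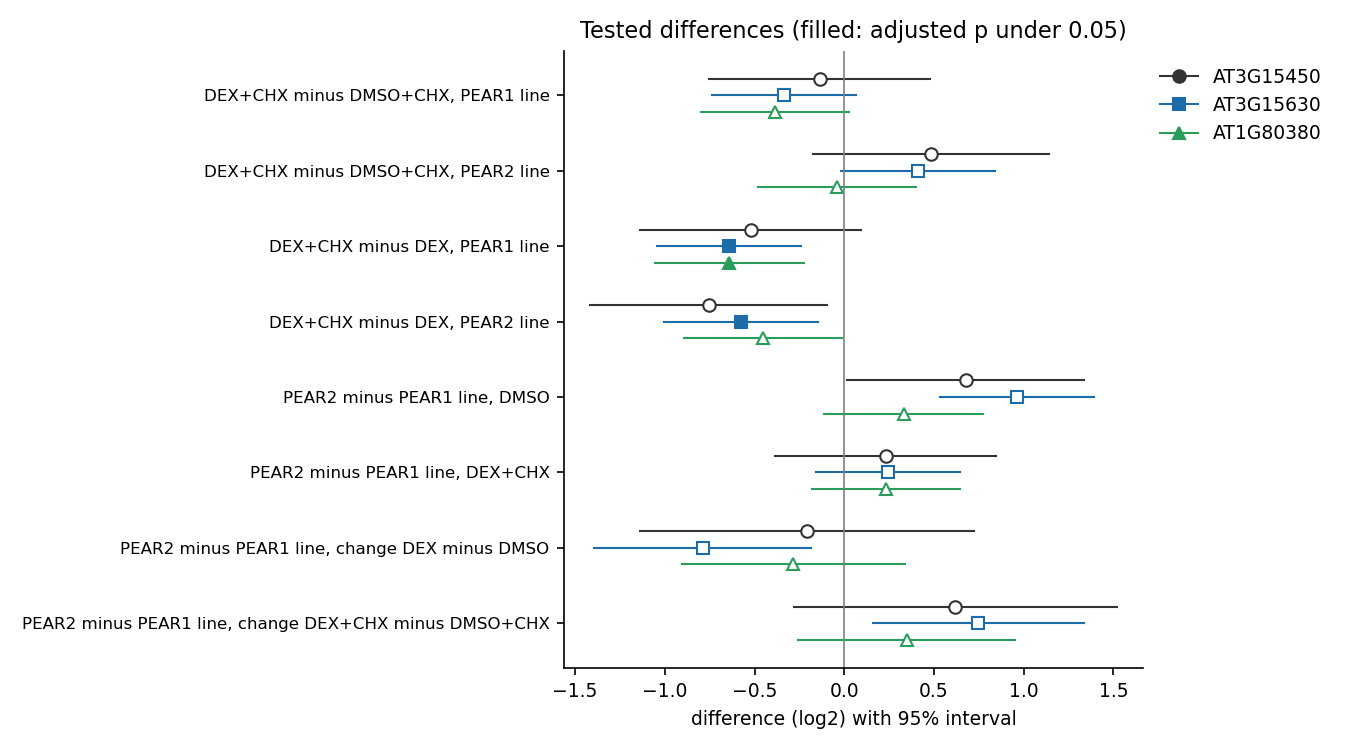
Fitted log2 difference (horizontal axis) with its 95% interval for the 8 comparisons tested, by gene; filled symbols passed an adjusted p of 0.05 over all named rows and open symbols did not. The 3 filled symbols are AT3G15630 in DEX+CHX minus DEX of both lines, at -0.64 and -0.57, and AT1G80380 in the PEAR1 line, at -0.64.

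The lines were also compared with each other, as the choice asked only for a rise in both. The DMSO and DEX arrays served in that choice. In DMSO AT3G15630 was higher in the PEAR2 line by 0.96 ± 0.21 (limma adjusted p = 0.0598, interval 0.53 to 1.39), and the arrays did not overlap. It did not pass with only the arrays compared (limma adjusted p = 0.392), with all rows tested (0.0799) or with other single arrays left out (up to 0.18). It passed with an intensity trend and robust prior at 0.022, without the dimmest rows, the lowest of 3 equal parts by mean level, at 0.0372, after quantile normalization once more at 0.0361 and without the second PEAR1 DMSO array at 0.039. AT3G15450 differed by 0.68 ± 0.32 (limma adjusted p = 0.493, interval 0.02 to 1.33) and by 0.14 without the third PEAR1 DMSO array. AT1G80380 differed by 0.33 ± 0.21 (limma adjusted p = 0.669, interval -0.11 to 0.77). Of all rows, 0.189% were called between the lines in DMSO, and the share without overlap was not counted.

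With DEX+CHX the lines differed by 0.23 ± 0.30 for AT3G15450, 0.24 ± 0.19 for AT3G15630 and 0.23 ± 0.20 for AT1G80380, with limma adjusted p of 0.988, 0.935 and 0.941. The intervals were -0.38 to 0.85, -0.16 to 0.65 and -0.18 to 0.65. None passed, as for all but 0.171% of rows.

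The change with DEX was compared between lines through an interaction term. All its arrays served in the choice, which asked for a rise in both lines, so the comparison is not independent of the choice. For AT3G15630 the PEAR2 change was smaller than the PEAR1 change by 0.79 ± 0.29 (fitted difference -0.79, limma adjusted p = 0.326, interval -1.40 to -0.18). The PEAR2 line started from a higher DMSO level, and the DEX levels of the lines overlapped. For AT3G15450 the difference was -0.21 ± 0.45 (limma adjusted p = 0.921, interval -1.14 to 0.72), and for AT1G80380 it was -0.28 ± 0.30 (limma adjusted p = 0.797, interval -0.91 to 0.34). The fitted value for AT3G15450 turned to 0.33 without the third PEAR1 DMSO array and to 0.11 without the first PEAR2 DMSO array.

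For DEX+CHX minus DMSO+CHX the PEAR2 change exceeded the PEAR1 change by 0.62 ± 0.43 for AT3G15450 and by 0.75 ± 0.28 for AT3G15630, with limma adjusted p of 0.921 and 0.705. For AT1G80380 the difference was 0.35 ± 0.29 (limma adjusted p = 0.935). The intervals were -0.28 to 1.52, 0.16 to 1.33 and -0.26 to 0.95. Of all rows, 0.109% and 0.0171% were called in the 2 interaction tests, and none of the 3 genes was among them. The DMSO+CHX arrays in the second test had also served in the choice.

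The working name was set against 40 further genes of sugar starvation and darkness, of which 8 have a row of their own. None of the 8 passed with DEX in either line, against 3.07% and 4.10% of all rows called in either direction. Their median change was 0.00 in the PEAR1 line, against -0.05 in the PEAR2 line, next to 0.00 and 0.01 over all rows. The highest was ATG8E, a ubiquitin-like protein of autophagy, at 0.28 ± 0.16 in the PEAR1 line (limma adjusted p = 0.482), and ATG8E was at -0.14 ± 0.16 in the PEAR2 line. Widely used starvation markers such as DIN6 and DIN1 have no named row of their own and were not analysed here. At those shares a count of 0 among 8 genes says little about the list, and 2 of the 8 were dim, AT1G21400 with group means of 1.82 to 2.47 and ATL8, a RING-type protein, with 1.41 to 2.08. With so few of the listed genes measured, the 3 genes are called by their loci.

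With DMSO+CHX against DMSO the same 8 genes were divided. ATG8E rose by 1.20 ± 0.16 and 1.11 ± 0.16 in the PEAR1 and PEAR2 lines (limma adjusted p = 1.53e-06 and 3.9e-06). D2HGDH, a mitochondrial dehydrogenase of lysine breakdown, rose by 0.61 ± 0.14 and 0.60 ± 0.14. MCCB, a subunit of the carboxylase of leucine breakdown, fell by 0.54 and 0.81 in these lines. ETFQO, which passes electrons from amino acid breakdown to the respiratory chain, fell by 0.38 and 0.53. In the PEAR1 line 2 genes rose and 2 fell, and in the PEAR2 line 2 rose and 4 fell, against the background of calls given above. The PEAR1 call of ETFQO was lost without the third DMSO or the third DMSO+CHX array.

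Adding CHX to DEX raised ATG8E by 0.51 ± 0.15 in the PEAR1 line (limma adjusted p = 0.00781) and by 0.82 ± 0.16 in the PEAR2 line (limma adjusted p = 0.000187), while the 3 chosen genes were lower or did not pass. MCCB fell by 0.64 in both lines. Over the 8 genes 1 rose and 2 fell in the PEAR1 line, and 1 rose and 3 fell in the PEAR2 line, next to 46.0% and 45.2% of all rows called.

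The relatives of AT3G15450 with YGL and LRDR motifs did not pass with DEX in either line, next to the same 3.07% and 4.10% of all rows. All 4 on the list have a row: AILP1, AT4G27450, AT5G43830 and AT3G22850. AT4G27450 came nearest in size, at 0.74 ± 0.35 in the PEAR2 line (limma adjusted p = 0.318) and 0.06 ± 0.35 in the PEAR1 line. AILP1 was at -0.64 ± 0.25 and 0.19 ± 0.25.

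With DMSO+CHX against DMSO, AT5G43830 fell by 0.92 ± 0.11 and 1.17 ± 0.11 and AT3G22850 fell by 0.60 ± 0.10 and 0.40 ± 0.10 in the PEAR1 and PEAR2 lines, and the other 2 did not pass. Both also fell when CHX was added to DEX, AT5G43830 by 0.94 and 0.89. AILP1 rose there by 0.67 ± 0.23 in the PEAR1 line (limma adjusted p = 0.0211) and fell by 0.64 ± 0.25 in the PEAR2 line (limma adjusted p = 0.0382). Each of these AILP1 calls was lost without single arrays. Of all rows, 45.6% and 46.7% were called in DMSO+CHX minus DMSO of the PEAR1 and PEAR2 lines. For DEX+CHX minus DEX the shares were 46.0% and 45.2%.

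Of 19 further photorespiration genes 5 have a row: HPR and AT1G79870, hydroxypyruvate reductases, AT1G11860 and AT1G32470, proteins of the glycine cleavage system, and LrgB, the plastid glycolate and glycerate carrier. None of the 5 passed with DEX, next to 3.07% and 4.10% of all rows, with changes of -0.21 to 0.26 over both lines. HPR, LrgB and AT1G32470 were dim, with group means of 1.23 to 3.11. AT1G79870 and AT1G11860 fell with DMSO+CHX against DMSO, the first by 1.10 ± 0.12 and 1.36 ± 0.12 and the second by 1.00 ± 0.10 and 1.53 ± 0.10, where AT1G80380 was higher by 1.90 and 1.46. The 3 dim genes did not pass there, next to 45.6% and 46.7% of all rows called. With CHX added to DEX, AT1G79870 fell by 0.74 and 0.84 and AT1G11860 by 0.95 and 1.01 in the PEAR1 and PEAR2 lines. Of the dim genes only AT1G32470 fell, by 0.45 in the PEAR1 line, next to 46.0% and 45.2% of all rows called. Its call was lost without any 1 of 3 arrays and after quantile normalization once more. AT1G80380 was at -0.64 and -0.45 in DEX+CHX minus DEX, the second not past the threshold. AT1G79870 and AT1G11860 rose by 0.41 and 0.51 in DEX+CHX minus DMSO+CHX of the PEAR2 line, the first call lost without any 1 array. Both calls were lost with only the arrays compared. In that comparison 7.44% of all rows were called, and DEX and batch cannot be told apart.

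**Figure D4:**
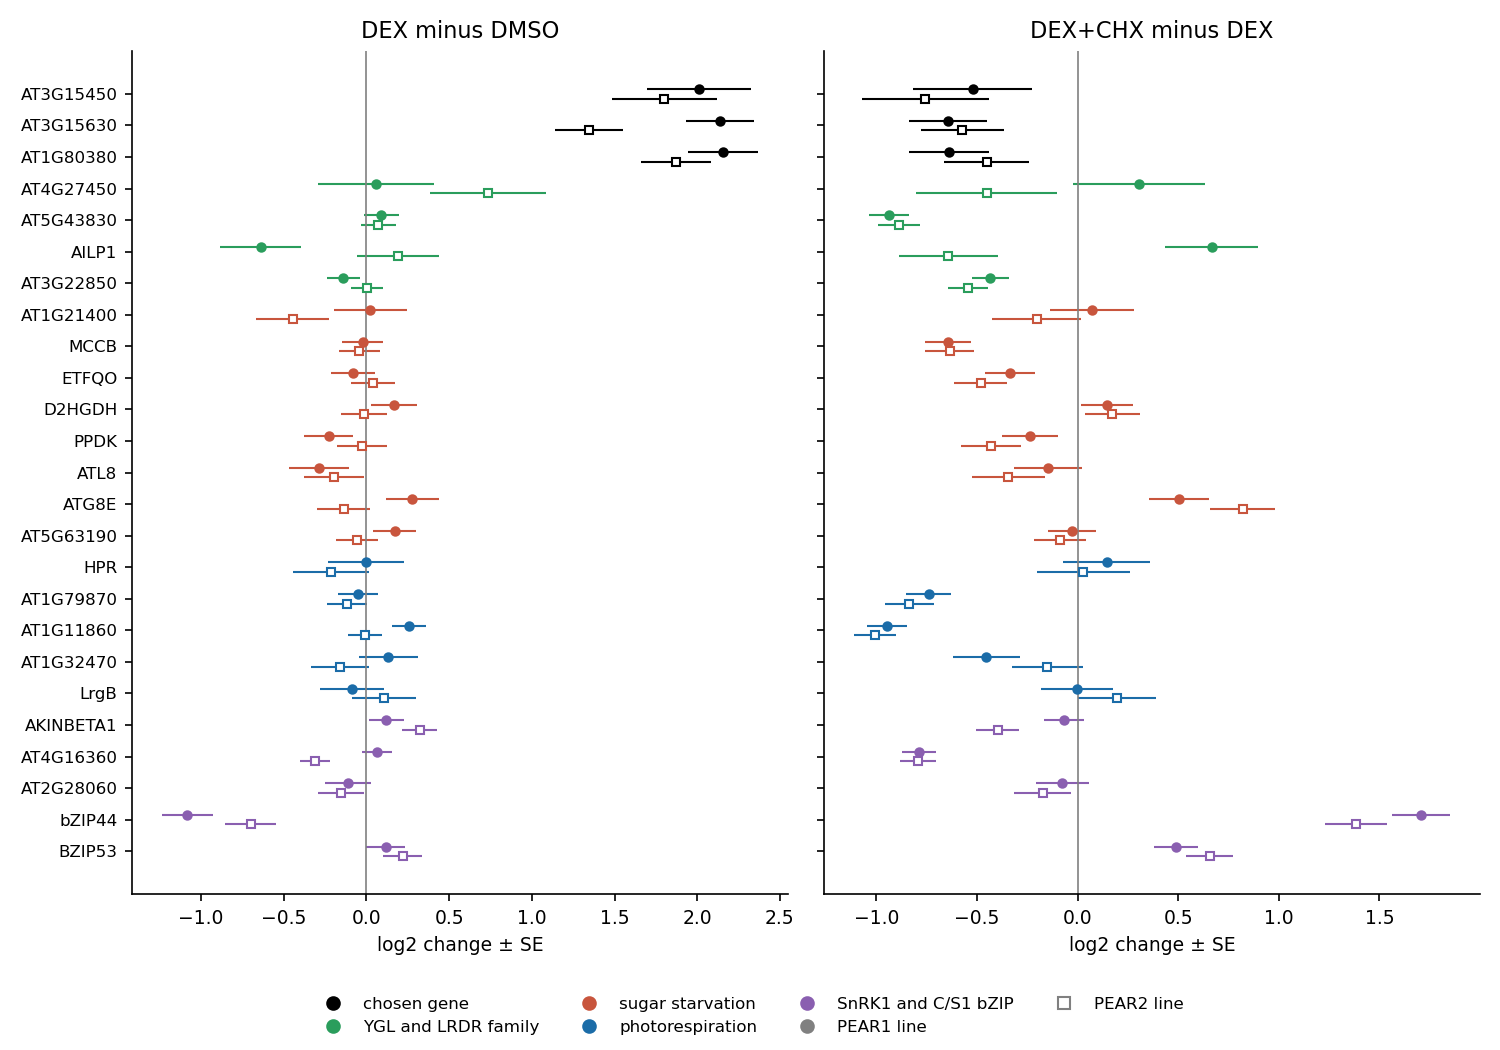
Log2 change ± SE (horizontal axis) for DEX minus DMSO on the left and DEX+CHX minus DEX on the right; rows are the 3 chosen genes in black and the listed genes in colour, filled circles for the PEAR1 line and open squares for the PEAR2 line. On the left the chosen genes lie at 1.35 to 2.16 and the highest listed gene, AT4G27450 in the PEAR2 line, lies at 0.74.

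The genes of SnRK1 signalling with a row were AKINBETA1, AT4G16360 and AT2G28060, which encode beta subunits of the kinase, and bZIP44 and BZIP53, transcription factors of the S1 group, 5 of 18 listed. bZIP44 fell with DEX, by 1.08 ± 0.15 in the PEAR1 line (limma adjusted p = 0.000175) and by 0.70 ± 0.15 in the PEAR2 line (limma adjusted p = 0.00841). Its PEAR2 call was lost with only the arrays compared (limma adjusted p = 0.078). BZIP53 was at 0.12 ± 0.12 and 0.22 ± 0.12 and did not pass, nor did the 3 beta subunits.

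Both bZIP genes were higher in the groups with CHX, though DMSO+CHX and DMSO also differ in time and batch. BZIP53 rose by 0.95 ± 0.12 and 1.01 ± 0.12 with DMSO+CHX against DMSO, and bZIP44 by 0.44 ± 0.15 and 0.52 ± 0.15, its PEAR1 call being lost without the first DMSO or the first DMSO+CHX array. Added to DEX, CHX raised bZIP44 by 1.71 ± 0.14 and 1.38 ± 0.15, in the comparison in which the fitted differences of the 3 chosen genes were below 0. In that comparison, matched in time and batch, BZIP53 rose by 0.49 ± 0.11 and 0.66 ± 0.12. AT4G16360 fell by 0.79 in both lines. AKINBETA1 fell in the PEAR2 line by 0.40 ± 0.11. These calls stand next to 45.6% and 46.7% of all rows in DMSO+CHX minus DMSO and 46.0% and 45.2% in DEX+CHX minus DEX.

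Of 10 genes listed as raised by sugar, EXO, a cell wall protein of growth, and APL3 and APL4, large subunits of the starch enzyme ADP-glucose pyrophosphorylase, have rows. EXO fell with DEX in the PEAR2 line by 0.89 ± 0.22 (limma adjusted p = 0.0207) and was at 0.26 ± 0.22 in the PEAR1 line. The PEAR2 call was lost without any 1 of 4 arrays and with only the arrays compared (limma adjusted p = 0.271). EXO rose by 3.98 ± 0.22 and 3.08 ± 0.22 with DMSO+CHX against DMSO, next to 45.6% and 46.7% of all rows called. APL3 and APL4 did not pass in DEX minus DMSO, DMSO+CHX minus DMSO or DEX+CHX minus DEX of either line.

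Clock genes were listed because the groups differ in time, and 2 of 22 have a row. GI, a clock-associated protein with an evening peak, rose with DEX in the PEAR2 line by 0.50 ± 0.09 (limma adjusted p = 0.00194) and was at 0.28 ± 0.09 in the PEAR1 line (limma adjusted p = 0.105). The PEAR2 call was lost with only the arrays compared (limma adjusted p = 0.145). AT5G52660, a MYB-like factor of the clock, was at -0.26 ± 0.18 and 0.08 ± 0.18. DMSO+CHX minus DMSO, the other contrast of 2 h with 1 h, also differed in CHX and batch, and the part of time was not tested. GI fell there by 0.51 ± 0.09 in the PEAR1 line (limma adjusted p = 6.84e-05). In the PEAR2 line GI fell by 0.38 ± 0.09 (limma adjusted p = 0.00132). AT5G52660 rose there by 0.48 ± 0.18 and 0.89 ± 0.18 (limma adjusted p = 0.0346 and 0.000225), and its PEAR1 call was lost without any 1 of 3 arrays. With both groups at 2 h, DEX+CHX minus DEX gave the same directions. GI was at -0.55 ± 0.09 and -0.57 ± 0.09 in the PEAR1 and PEAR2 lines. AT5G52660 was at 0.87 ± 0.17 and 0.92 ± 0.18, and each of these values passed. Of all rows, 45.6% and 46.7% were called in DMSO+CHX minus DMSO, and 46.0% and 45.2% in DEX+CHX minus DEX. In DEX+CHX minus DMSO+CHX, GI passed only in the PEAR2 line, at 0.31 ± 0.09. That value failed the threshold whichever array was removed, and 7.44% of all rows were called in that comparison. The part of the clock in the 3 genes was not tested.

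The green-tissue markers were highest in DMSO. Their summed level was 6.92 to 7.39 in DMSO and 6.56 to 6.73 with DEX in the PEAR1 line, and 7.16 to 7.47 and 6.89 to 7.12 in the PEAR2 line. With CHX it was 5.99 to 6.88 over both lines. RCA fell with DEX in the PEAR1 line by 0.61 ± 0.16 (limma adjusted p = 0.0414), a call lost without 5 of 6 arrays, and was at -0.39 ± 0.16 in the PEAR2 line. The fitted changes of RCA and LHCB4.1 with DEX were below 0 in both lines, where AT1G80380, of a pathway of green cells, was higher. The part of green tissue in the results was not tested. In these root samples fewer cells of a type and less RNA per cell cannot be told apart.

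The annotated spans of AT3G15450 and AT3G15460 overlap, as do those of AT3G15630 and AT3G15635, and the array's probe positions were not used here. AT3G15460 was at 0.08 ± 0.19 and -0.13 ± 0.19 with DEX, neither past the threshold, and fell with DMSO+CHX by 0.66 and 0.60. On the other side, AT3G15440 had group means of 1.39 to 1.62. Around AT3G15630, AT3G15610, 3 genes away, was at 0.13 ± 0.13 and -0.14 ± 0.13 with DEX. AT3G15640, 2 genes away, was at 0.02 ± 0.11 and -0.24 ± 0.11. Around AT1G80380, AT1G80320, 6 genes away, was at -0.19 ± 0.15 and -0.43 ± 0.15. On its other side IAA15, an auxin-response repressor, had group means of 1.52 to 1.98. With DMSO+CHX the group means of AT1G80320 were 7.85 and 8.03, against 6.71 and 6.82 in DMSO. Those of AT3G15610 were 7.93 and 7.89, against 8.55 and 8.56, and those of AT3G15640 were 8.97 and 8.95, against 10.35 and 10.40. None of these 6 neighbours was called higher with DEX, next to 1.27% and 2.15% of all rows, and AT3G15440 and IAA15 were dim in all groups.

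Across the 8 group means the 3 genes ran closely together, with Pearson correlations of 0.98 between AT3G15450 and AT3G15630, 0.94 between AT3G15450 and AT1G80380 and 0.93 between AT3G15630 and AT1G80380. These are descriptions over groups that share arrays and an order of treatments, and the choice of the genes fixed much of that order. Among 5167 rows whose group means span at least 1, the most alike to AT3G15450 were AT1G48870 at 0.95, AT3G13760 at 0.94 and AT2G31730 at 0.94. For AT3G15630 they were AT1G48870 at 0.94, AT2G15880 at 0.93 and ZYP1a at 0.93. For AT1G80380 they were ZYP1a at 0.98, AT2G31730 at 0.98 and AT5G24490 at 0.96.

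The 6 genes so named had DEX minus DMSO differences above 0 in both lines. Their choice by likeness to the 3 genes favours that, so their values are a description without a test. AT2G31730 was higher by 1.61 ± 0.26 in the PEAR1 line and by 1.49 ± 0.26 in the PEAR2 line, and AT3G13760 by 1.48 ± 0.23 and 1.38 ± 0.23. AT2G15880 was higher with DMSO+CHX by 1.81 ± 0.28 in the PEAR1 line, yet stood at -0.17 ± 0.28 in the PEAR2 line, a contrast that was 1.83 and 0.36 for AT3G15630. ZYP1a, a protein of the meiotic synaptonemal complex, had group means of only 1.95 to 3.06.

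**Figure D5:**
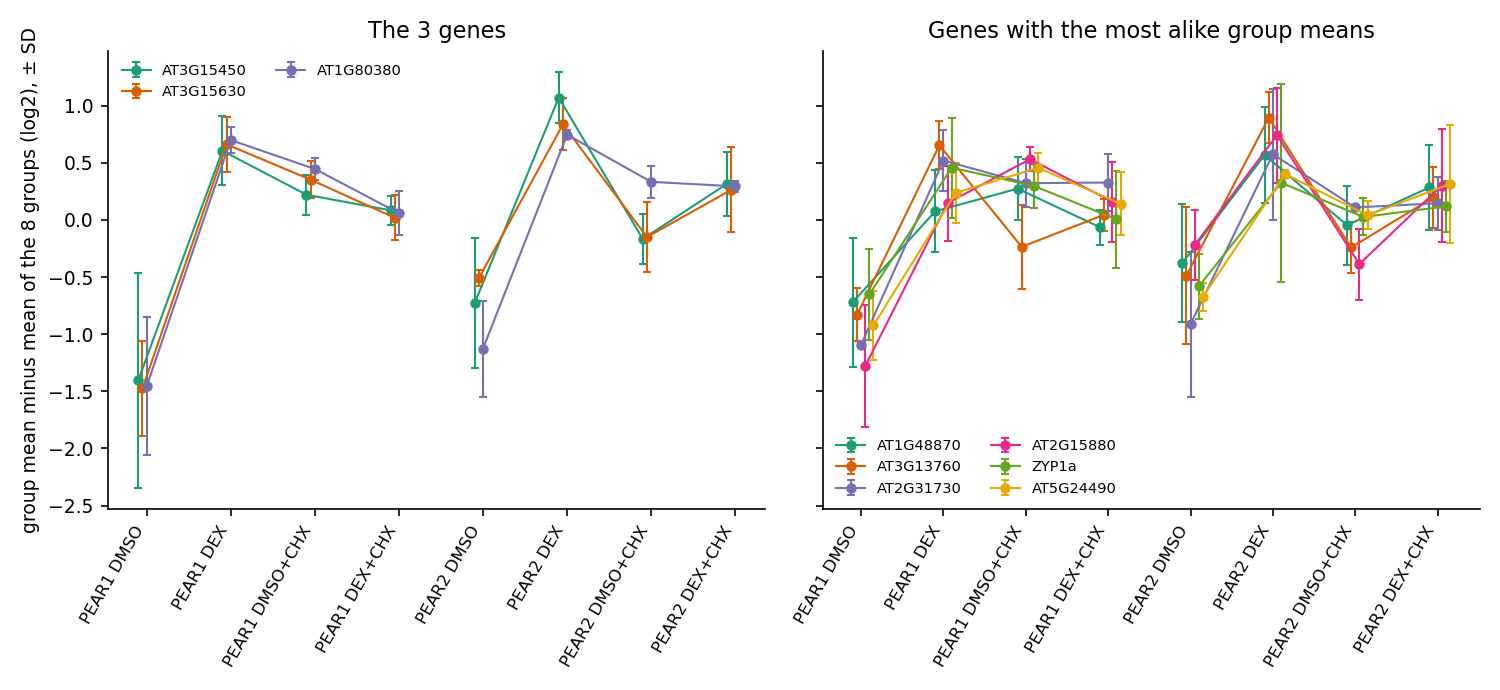
Group mean minus the mean of the 8 groups (vertical axis, log2) by line and treatment, with SD bars over 3 or 4 arrays; the left panel shows the 3 genes and the right panel the 6 genes with the most alike group means, and lines join the groups of a line. On the left all 3 genes are lowest in PEAR1 DMSO and highest in the DEX groups.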

How the data were processed

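Per the submitters' processing notes, the log2 intensities deposited by the authors came from RMA, which subtracts background, makes arrays alike by quantiles and gives 1 value per probe set. For its version, options and genome build, the sources used here give nothing. All 25 columns of the 38408-row table were matched to samples by name. Through the platform annotation and the RefSeq table for TAIR10.1, 16746 rows name 1 gene, 758 several and 20904 none. Positions served only to find neighbouring genes.

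With limma 3.58.1 (lmFit and eBayes, R 4.3.3) group means were estimated from all 25 arrays together, and p-values were adjusted by Benjamini-Hochberg over the 17504 rows that name a gene, with a threshold of 0.05. A gene with several rows was represented by the row with the highest mean. Batch could not be fitted, because DMSO+CHX alone was in batch A461. Precision is limited by the number of arrays.

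The 3 genes, the 8 lists (150 genes, 31 with a row of their own) and the tests were chosen with earlier results of these data known. Named genes were the 3 genes, list genes that passed in a comparison with further list genes as examples, the 3 most alike rows for each gene, and the nearest genes with a row. Not every list gene that passed is named, PPDK and AT5G63190 among those left out above, and not every call of a named gene is given. Alternatives were a fit on only the arrays compared, an intensity trend with robust prior, leaving out the dimmest rows (the lowest of 3 equal parts), quantile normalization once more, a shift to the same 75th percentile, all rows, a block for the replicate number, and each array left out in turn. The script was tested on simulated data. Same-numbered arrays of a line correlated at -0.12 to 0.10 in their deviations from group means, so the numbers were not taken as pairs. The summed level of markers is the log2 of their summed intensities. Figures were drawn with matplotlib 3.10.9.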

Additional observations from a re-analysis of the deposited data

How the results depend on the processing

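In the 8 comparisons tested for the 3 genes, 336 of the alternative values kept their direction and their side of the threshold, 10 newly passed, 5 no longer passed and 3 changed sign; the cause was not tested for any of them. In the contrasts with DMSO that were only described, all 147 alternative values run kept their direction. With only the arrays compared, DEX+CHX minus DEX passed for AT3G15450 in the PEAR1 line (-0.52) and the PEAR2 line (-0.76) and for AT1G80380 in the PEAR2 line (-0.45), and no longer passed for AT3G15630 in the PEAR2 line (-0.57). AT3G15450 also passed there in the PEAR2 line with an intensity trend and robust prior and without the dimmest rows (-0.76 in each). AT3G15630 between the lines in DMSO passed in both of those settings (0.96) and after quantile normalization once more (1.09). With 1 array left out, that difference ranged from 0.72 to 1.10. DEX+CHX minus DEX in the PEAR2 line ranged from -0.91 to -0.64 for AT3G15450 and from -0.79 to -0.45 for AT3G15630. DEX+CHX minus DMSO+CHX of AT1G80380 in the PEAR2 line ranged from -0.12 to 0.0124, the latter without the second PEAR2 DMSO+CHX array, and the line difference in the DEX change of AT3G15450 from -0.53 to 0.33. Among the listed genes, the falls of PYK10 with CHX turned to 0.064 and 0.0632 (DMSO+CHX minus DMSO) and to 0.0713 and 0.0544 (DEX+CHX minus DEX) after quantile normalization once more. The replicate block changed no call of the 3 genes in the 6 tested comparisons it was fitted for (AT3G15630, DEX+CHX minus DEX in the PEAR1 line, -0.70). It was not fitted for the lines in DMSO or in DEX+CHX, as numbers lie within a line. For the described contrasts of the 3 genes with DMSO its values are not given. Counts over all rows moved by over 1.5 times in several settings. With only the arrays compared, 122 and 166 rows were called for DEX minus DMSO, instead of 538 and 717, and 380 and 569 for DEX+CHX minus DMSO+CHX, instead of 628 and 1302. With all 38408 rows tested, instead of the 17504 that name a gene, these were 1017, 1201, 1127 and 2402. DEX+CHX minus DEX then gave 18922 and 17907, instead of 8057 and 7911. DMSO+CHX minus DMSO gave 18171 and 18430, instead of 7976 and 8180, and DEX+CHX minus DMSO 18615 and 18041, instead of 8081 and 7779. As more rows were tested in that setting, its counts cannot be read as larger shares. Single arrays moved counts too: DEX minus DMSO gave 349 without the first PEAR1 DEX array and 465 without the third PEAR2 DMSO array, and DEX+CHX minus DMSO+CHX gave 227 without the third PEAR1 DMSO+CHX array and 696 without the first PEAR2 DEX+CHX array. The replicate block gave 366 for DEX+CHX minus DMSO+CHX in the PEAR1 line. Between the lines, calls numbered 3 to 63 in DMSO (33 in the fit reported) and 6 to 66 in DEX+CHX (30), and for the interaction terms 2 to 77 (19) and 0 to 9 (3). The number of arrays and the absence of detection calls limit what low rows can show.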
